A study of Mus musculus with 12 samples.

Results

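The 10 genes described here move calcium in and out of the sarcoplasmic reticulum of heart muscle, or belong to protein phosphatase 1, which acts on that machinery. They were chosen by gene symbol, with earlier results of these data known. All 10 were found among the 55401 genes of the count table. The calcium pump group holds Atp2a2, Pln and Sln, the release and storage group Ryr2, Casq2 and Hrc, and the phosphatase group Ppp1ca, Ppp1cb, Ppp1cc and Ppp1r1a. All 10 passed the filter on low counts and were tested.

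Each heartbeat releases calcium from the sarcoplasmic reticulum through the ryanodine receptor RYR2, and the pump SERCA2a, encoded by Atp2a2, then returns it to the store. Phospholamban (Pln) and sarcolipin (Sln) are small membrane proteins that slow the pump, and phosphorylation of phospholamban relieves that brake. Protein phosphatase 1 removes the phosphate again, and inhibitor 1 (Ppp1r1a) holds the phosphatase back. Protein kinase C alpha, encoded by Prkca, is a calcium-dependent kinase known to phosphorylate inhibitor 1. Lower SERCA2a is a textbook feature of failing and pressure-overloaded hearts.

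RNA from the left ventricle was sequenced in 12 libraries, 3 from each of 4 groups of mice: wild type (WT) with sham surgery, WT with transverse aortic constriction (TAC), and Prkca T497A with either operation. TAC narrows the aorta and loads the left ventricle with pressure. Here it was done with a 27-gauge needle at 10 weeks of age, and hearts were collected 5 weeks later, at 15 weeks. The series title places the mice in a study of CRISPR-Cas9 base editing, and the T497A substitution lies in protein kinase C alpha. No group carries another allele or agent per the labels. Zygosity, strain, sex and the cells in which the substitution is present are not stated there. A change of 1 amino acid leaves no trace in gene counts, so the genotype labels could not be checked. The labels do not say that each library comes from a separate mouse, so each p-value rests on the spread between libraries, which may be technical. All titles carry the same replicate number, and each also carries a number of its own whose meaning is not given. Replicates are numbered here only to name them.

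Total counts ran from 36862004 to 46898344 per library. The labels call the cells cardiomyocytes, but the protocol describes cardiac tissue with no sorting. The 8 ventricular cardiomyocyte markers summed to 46556 to 73903 CPM (counts scaled for library depth) in every library. Markers of other cells were also present: 8 fibroblast markers summed to 1780.1 to 3174 CPM, 8 endothelial markers to 991 to 1364 CPM and 8 macrophage markers to 135 to 279 CPM. The libraries are therefore described as ventricle tissue.

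Of the 10 genes, 6 had a promoter sequence in the RefSeq promoter table (GRCm38.p6, 250 bases before to 50 after the start). The promoters of Pln, Ryr2 and Hrc, which fell after TAC in WT, and of Casq2, which rose, are shown because these genes differ most clearly in direction. Lower case marks plain sequence, and capitals mark matches on either strand to a GC box (GGGCGG), an E-box (CANNTG), a nuclear receptor half-site (AGGTCA) or a GATA site (AGATAA). The Pln window is chr10:53337436-53337735 on the plus strand, and that of Ryr2 is chr13:12106896-12107195 on the minus strand. The Hrc window is chr7:45335019-45335318 on the plus strand, and that of Casq2 is chr3:102086165-102086464 on the plus strand. Sequences run 5′ to 3′ on the gene's strand.
Pln: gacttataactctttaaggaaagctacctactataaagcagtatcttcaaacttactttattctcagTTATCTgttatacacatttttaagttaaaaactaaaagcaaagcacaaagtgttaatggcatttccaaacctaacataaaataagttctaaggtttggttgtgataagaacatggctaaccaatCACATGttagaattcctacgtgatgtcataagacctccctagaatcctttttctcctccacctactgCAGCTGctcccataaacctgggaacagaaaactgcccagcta
Ryr2: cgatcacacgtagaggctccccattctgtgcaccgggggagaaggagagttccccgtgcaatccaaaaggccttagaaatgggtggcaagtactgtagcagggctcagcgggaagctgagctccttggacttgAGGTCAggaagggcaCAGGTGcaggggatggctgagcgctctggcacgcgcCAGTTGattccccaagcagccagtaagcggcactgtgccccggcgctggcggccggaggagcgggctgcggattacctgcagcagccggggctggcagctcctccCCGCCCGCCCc
Hrc: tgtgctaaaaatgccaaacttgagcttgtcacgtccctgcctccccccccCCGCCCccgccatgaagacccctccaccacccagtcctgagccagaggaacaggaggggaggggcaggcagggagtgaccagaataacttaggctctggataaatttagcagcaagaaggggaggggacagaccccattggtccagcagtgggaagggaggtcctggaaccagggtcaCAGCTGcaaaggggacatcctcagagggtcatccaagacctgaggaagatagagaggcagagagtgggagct
Casq2: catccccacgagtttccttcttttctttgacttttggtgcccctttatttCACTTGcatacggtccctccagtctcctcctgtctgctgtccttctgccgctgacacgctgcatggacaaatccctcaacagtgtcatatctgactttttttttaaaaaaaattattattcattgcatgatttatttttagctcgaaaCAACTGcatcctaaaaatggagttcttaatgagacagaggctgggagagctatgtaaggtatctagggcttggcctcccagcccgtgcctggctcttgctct
E-boxes were found in all 4 printed windows, as in 72.3% of all 32851 promoters of this length. GC boxes were found in those of Ryr2 (2 overlapping matches) and Hrc (1), as in 35.7% of all promoters. The Ryr2 window held 1 half-site, found in 16.3% of all promoters, and the Pln window 1 GATA site, found in 11.2%. The GC content was 36.0% for Pln, 44.7% for Casq2, 58.7% for Hrc and 65.3% for Ryr2, beside a median of 52.7% over all promoters. The windows of Ppp1cb and Ppp1cc are not printed. That of Ppp1cb, also called lower after TAC in WT, held 0 E-boxes, 3 GC boxes and 1 half-site. That of Ppp1cc held 0 E-boxes and 7 GC boxes. No motif count set the 3 printed genes that fell apart from Casq2, and a match is a description of letters, not a binding site.

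Per kilobase of exon, Atp2a2 was the most abundant of the 10 in every group. In WT sham it stood at 2912 ± 137 CPM per kb (SD, n = 3), followed by Pln at 698 ± 77.9, Hrc at 506 ± 7.15, Casq2 at 390.3 ± 25.3 and Ryr2 at 110.4 ± 5.75. Ppp1cb and Ppp1ca lay together at 48.4 ± 2.56 and 47.5 ± 1.36 CPM per kb, with overlapping libraries. That closeness rests on merged exons of 10913 and 2520 bases, as Ppp1cb had 528 CPM and Ppp1ca 120 CPM. Ppp1cc was far lower at 6.23 ± 0.260 CPM per kb, and Sln at 1.54 ± 0.353 and Ppp1r1a at 1.28 ± 0.362 overlapped at the bottom. After TAC in WT the order changed: Casq2 at 510.3 ± 57.4 CPM per kb lay next to Pln at 471 ± 41.3, with overlapping libraries, and both lay above Hrc at 284 ± 18.3. In T497A after TAC, Pln at 616 ± 71.8 CPM per kb kept its place below Atp2a2, and Hrc at 425 ± 46.2 overlapped Casq2 at 421 ± 34.7. The place of Pln depends on its merged exons, 59.6% of whose bases overlap a predicted gene on the opposite strand.

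**Figure D1:**
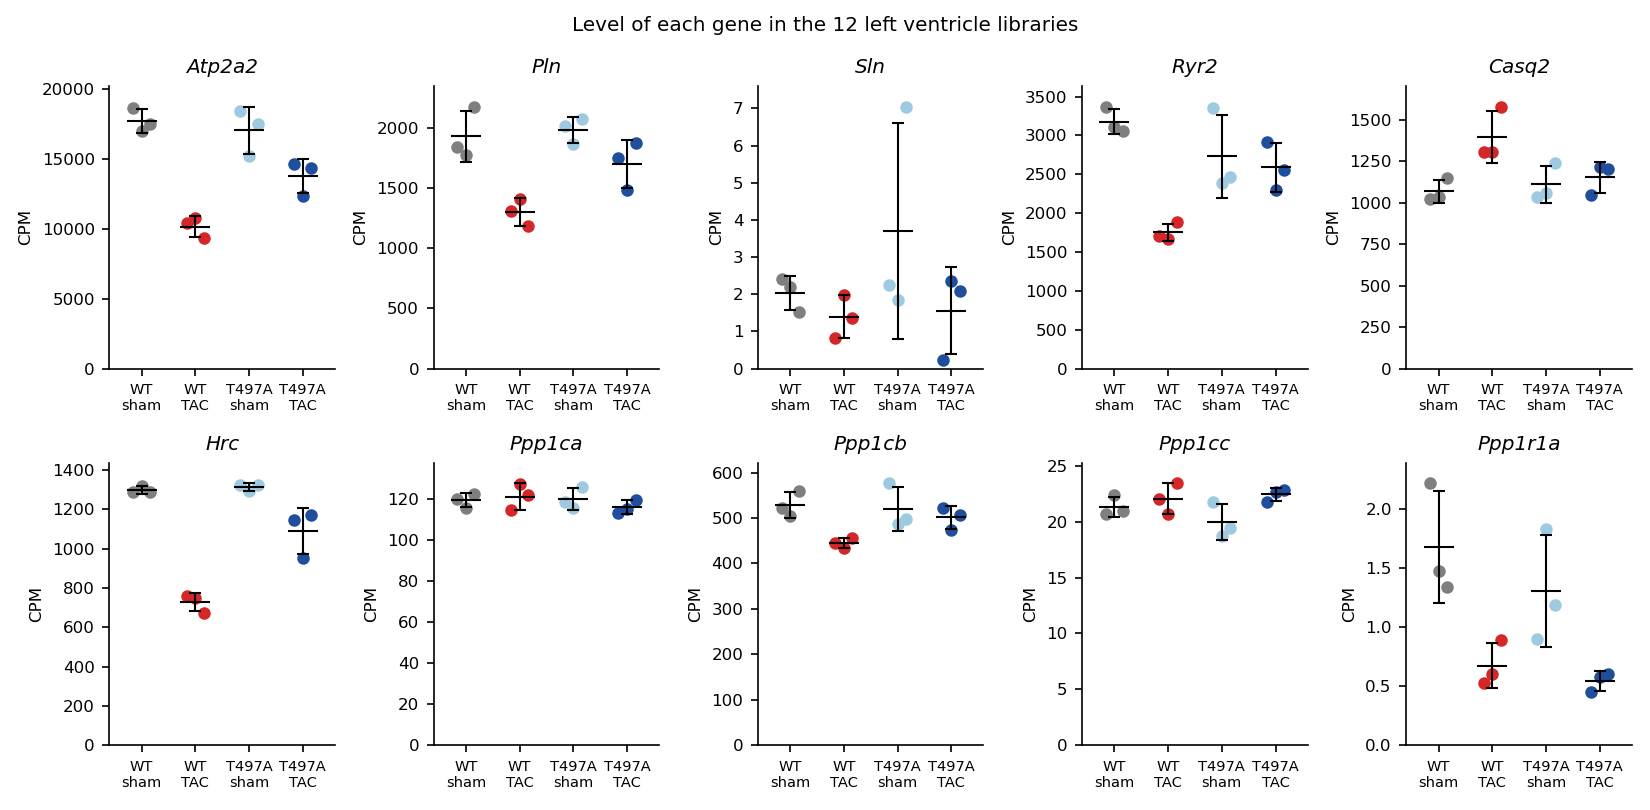
Level of each of the 10 genes in CPM (y axis from 0, linear) in WT sham, WT TAC, T497A sham and T497A TAC. Points are libraries, bars the mean ± SD of 3. The WT TAC libraries of Atp2a2 (9303 to 10774), Ryr2 (1672 to 1882) and Hrc (674 to 760.0) lie below all libraries of the other groups, those of Casq2 (1304 to 1578) above all of them.

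In WT hearts, TAC lowered 6 of the 10 genes (Atp2a2, Pln, Ryr2, Hrc, Ppp1cb and Ppp1r1a) and raised 1 (Casq2). These 7 called genes stand beside 25% of all 15764 tested genes called in the same comparison, 12.3% higher and 12.6% lower. The groups did not overlap in the same 7 genes, as in 42.2% of all genes. The median log2 fold change of the 10 was -0.56, and that of all genes 0.01. In whole tissue, fewer cells of a type and less RNA per cell cannot be told apart.

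The pump gene Atp2a2 (ENSMUSG00000029467.15, chromosome 5, 122453513 to 122502225, minus strand, GRCm38) had 18623, 16995 and 17508 CPM in the WT sham libraries and 10386, 10774 and 9303 CPM after TAC. Every TAC library lay below every sham library. Atp2a2 was thus 1.74-fold lower, from 17708 ± 832 to 10154 ± 762 CPM (log2 fold change -0.80, SE 0.09, and an adjusted p of 5.49e-05 in the quasi-likelihood test of edgeR). In T497A it had 18449, 15169.9 and 17474 CPM after sham and 14656, 12361 and 14318 CPM after TAC. These groups did not overlap either, and replicate 2 was the lowest in both. The difference in T497A was -0.31 ± 0.09 and did not pass (edgeR adjusted p = 0.217).

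After TAC, the 3 T497A libraries of Atp2a2 all lay above the 3 WT libraries (log2 difference 0.44 ± 0.09, 1.36-fold, edgeR adjusted p = 0.0115). The adjusted p was 0.0659 without WT TAC replicate 3 and 0.0515 without T497A TAC replicate 3, in the same test by edgeR. After sham the genotypes overlapped (-0.06 ± 0.09). The interaction is the signed TAC effect of T497A minus that of WT, so a positive value here is a smaller fall in T497A. It was 0.50 ± 0.13 and missed the threshold (edgeR adjusted p = 0.0734). DESeq2 called it (adjusted p = 0.0128).

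Phospholamban (Pln, chromosome 10, 53337667 to 53345987, plus strand), the inhibitor of the pump, moved in the same direction by a smaller step. Its WT libraries had 1837, 1771 and 2172 CPM after sham and 1307, 1409 and 1182 CPM after TAC. No TAC library reached a sham library, and Pln was 1.48-fold lower after TAC (-0.57 ± 0.10, edgeR adjusted p = 0.00117). In T497A the values were 2016, 1861 and 2068 CPM after sham and 1745, 1481 and 1869 CPM after TAC. TAC replicate 3 lay just above sham replicate 2, so the groups overlapped, and the difference of -0.22 ± 0.10 did not pass (edgeR adjusted p = 0.413).

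After TAC, Pln was 1.31-fold higher in T497A than in WT, with no overlap (0.39 ± 0.10, edgeR adjusted p = 0.0316). That call was lost in 4 of the 6 fits that left out 1 library (WT TAC replicate 1 or 3, T497A TAC replicate 1 or 3), with an adjusted p up to 0.141 in edgeR's test, and at 0.070 in a fit of these 6 libraries alone. The interaction of 0.35 ± 0.14 did not pass (edgeR adjusted p = 0.237). Of the exon bases of Pln, 59.6% overlap the predicted gene Gm47644 on the opposite strand and 5.11% overlap Cep85l. Whether counting used strand is not given in the sources used here.

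The ratio of Pln to Atp2a2 transcripts, both per kilobase, was 0.217, 0.230 and 0.273 in WT sham and 0.277, 0.288 and 0.280 in WT TAC. All 3 TAC libraries lay above the 3 sham libraries, the closest pair being 0.273 and 0.277. In T497A the ratio was 0.241, 0.270 and 0.261 after sham and 0.262, 0.264 and 0.288 after TAC, with overlap. The group means were 0.240 ± 0.0294, 0.282 ± 0.00570, 0.257 ± 0.0151 and 0.271 ± 0.0142 in the order WT sham, WT TAC, T497A sham and T497A TAC. The size of the ratio depends on the merged exon lengths. For Pln, 59.6% of these bases overlap a predicted gene on the opposite strand, and the use of strand in counting is not given.

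The log2 ratio was 0.24 higher after TAC in WT (exact 2-sided permutation test, p = 0.1, the smallest that 3 against 3 libraries allow). In T497A the difference was 0.08 (exact permutation p = 0.4). The genotypes differed by 0.11 after sham (exact permutation p = 0.4) and by -0.06 after TAC (exact permutation p = 0.3). Averaged over both genotypes, the ratio was 1.12-fold higher after TAC (log2 0.16, exact permutation p = 0.045 over 400 arrangements, where 0.005 is the smallest possible). The interaction was -0.16 (exact permutation p = 0.165, with genotype permuted within each surgery, so its null is no genotype difference after either operation). These are 6 tests of 1 ratio, and the smallest p of 0.045 is not adjusted for them. The averaged difference kept its sign when any 1 library was left out (0.12 to 0.21), with an exact permutation p from 0.01 to 0.1.

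**Figure D2:**
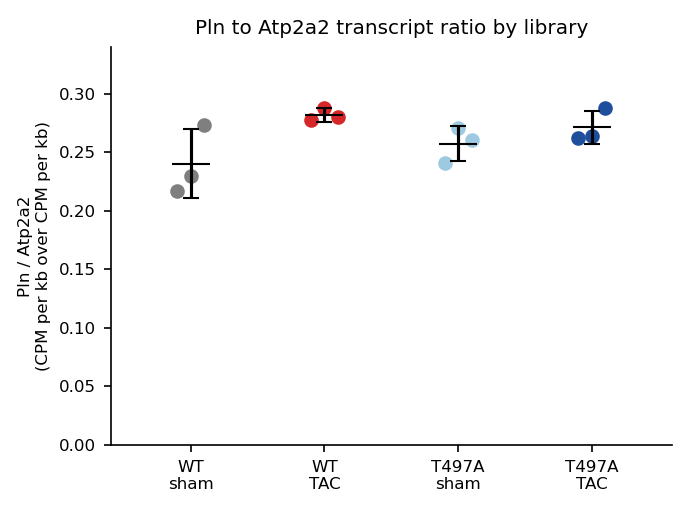
Ratio of Pln to Atp2a2 (each in CPM per kb, y axis from 0) in the 4 groups. The size of the ratio depends on the merged exon lengths. Points are libraries, bars the mean ± SD of 3, and the WT TAC libraries lie at 0.277 to 0.288, above the WT sham libraries at 0.217 to 0.273, while the T497A groups overlap.

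Sarcolipin (Sln, chromosome 9, 53850164 to 53854560), the pump inhibitor best known from atrium and skeletal muscle, was near the floor of detection. It had 10 to 320 counts per library. Its WT values were 2.40, 2.19 and 1.51 CPM after sham and 0.833, 1.99 and 1.35 CPM after TAC. In T497A they were 2.24, 1.83 and 7.04 CPM after sham and 0.223, 2.37 and 2.08 CPM after TAC. Replicate 3 of T497A sham was the highest of the 12 libraries and replicate 1 of T497A TAC the lowest. The coefficient of variation was 78.2% and 74.8% in the T497A groups, and all groups overlapped. No comparison passed (TAC in WT -0.55 ± 0.74, edgeR adjusted p = 0.639; TAC in T497A -1.26 ± 0.73).

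Transcripts of the atrial myosin light chains Myl7 and Myl4 stood beside these Sln values. Their sum was 103 CPM in the library with the highest Sln and 6.14 CPM in the one with the lowest, and Sln was between 3.64% and 8.23% of the sum in every library. Across the 12 libraries Sln spanned 31.5-fold and the sum 16.8-fold. Of the other atrial markers, Bmp10 was at 0 in 9 libraries and at most 0.0880 CPM. Sbk2 did not follow, at 4.41 to 6.88 CPM in both sham groups, 0.614 to 1.20 CPM in WT TAC and 2.42 to 2.85 CPM in T497A TAC. The 10 skeletal muscle markers summed to 1.14 to 30.1 CPM over the libraries, with 4.38 CPM in the library with the highest Sln and 3.12 CPM in the one with the lowest. The part of atrial or skeletal muscle transcripts in the Sln values was not tested.

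**Figure D3:**
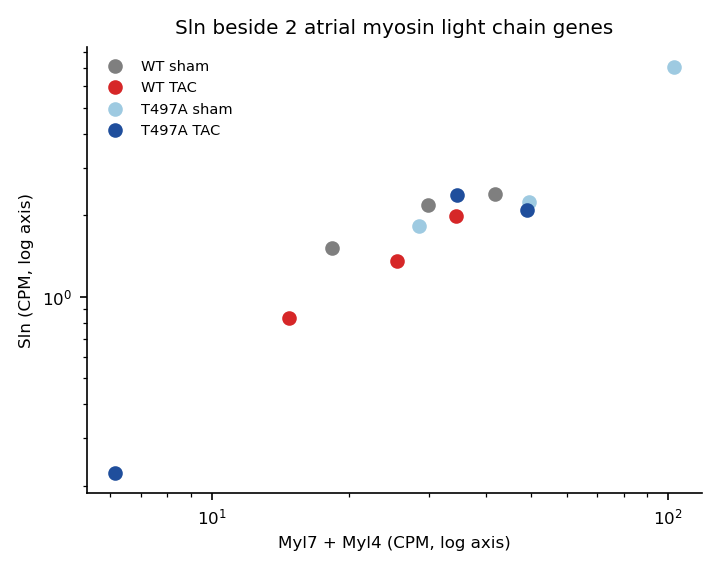
Sln against the sum of Myl7 and Myl4 in CPM (both axes logarithmic), 1 point per library, coloured by group. T497A sham replicate 3 lies at the top right (7.04 and 103 CPM) and T497A TAC replicate 1 at the bottom left (0.223 and 6.14 CPM), and no group stands apart from the others.

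The release channel gene Ryr2 (chromosome 13, 11553102 to 12106945, minus strand) also fell after TAC in WT. Its log2 fold change was near those of Hrc (-0.84 ± 0.08) and Atp2a2 (-0.80 ± 0.09). The WT libraries of Ryr2 had 3368, 3109.9 and 3058 CPM after sham and 1704, 1672 and 1882 CPM after TAC. These groups lay far apart, and Ryr2 was 1.81-fold lower (-0.86 ± 0.12, edgeR adjusted p = 0.000279). In T497A it had 3349, 2382 and 2470.0 CPM after sham and 2916, 2297 and 2556 CPM after TAC. Here the groups overlapped: sham replicates 2 and 3 lay within the range of the TAC libraries, and sham replicate 1 above it (-0.08 ± 0.12, edgeR adjusted p = 0.863). The coefficient of variation of T497A sham was 19.6%, against 5.21% in WT sham.

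After TAC, Ryr2 was 1.48-fold higher in T497A than in WT, with no overlap (0.56 ± 0.12, edgeR adjusted p = 0.0139). Without T497A TAC replicate 1, its highest library, the adjusted p was 0.0574 in edgeR's test. The interaction of Ryr2 passed (0.78 ± 0.17, edgeR adjusted p = 0.0432). It was lost in 10 of the 12 fits that left out 1 library, where the estimate stayed between 0.69 and 0.95 and the adjusted p of edgeR's test reached 0.0993. Only the fits without T497A sham replicate 1 and without T497A TAC replicate 2 kept it. With no filter on low counts the adjusted p was 0.0733 by edgeR.

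Hrc (ENSMUSG00000038239.11, chromosome 7, 45335290 to 45338974), the histidine-rich calcium-binding protein of the reticulum lumen, had the smallest p of the 10 after TAC in WT. Its libraries held 1290.5, 1320.3 and 1287 CPM after sham and 760.0, 750.3 and 674 CPM after TAC. The difference was 1.78-fold (-0.84 ± 0.08, edgeR adjusted p = 1.31e-05). In T497A it had 1326, 1292 and 1323 CPM after sham and 1146, 955 and 1171 CPM after TAC. All 3 TAC libraries lay below the sham libraries there too, with replicate 2 the lowest, but the difference did not pass (-0.27 ± 0.08, edgeR adjusted p = 0.207). The 6 sham libraries of both genotypes were tight, with a coefficient of variation of 1.41% in WT and 1.44% in T497A, against 10.9% in T497A TAC.

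Hrc was 1.5-fold higher in T497A than in WT after TAC (0.58 ± 0.08, edgeR adjusted p = 0.00101). It was the one member whose call after TAC held in all 6 fits that left out 1 library, and under every other setting tried. Its interaction also passed (0.57 ± 0.11, edgeR adjusted p = 0.0261). Leaving out 1 library lost that call in 7 of 12 fits, with an estimate of 0.51 to 0.66 and an adjusted p up to 0.0734 in edgeR's test.

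Casq2 (chromosome 3, 102086415 to 102146514), the cardiac calsequestrin that stores calcium beside the release channel, was the only one of the 10 called higher after TAC in WT. Its libraries had 1021, 1035 and 1147 CPM after sham and 1307, 1304 and 1578 CPM after TAC. The groups did not overlap, and Casq2 was 1.31-fold higher (0.39 ± 0.10, edgeR adjusted p = 0.00989). Without WT TAC replicate 3, the highest library, the difference was 0.29 and the adjusted p 0.0552 in edgeR's test. In T497A it had 1036, 1058 and 1238 CPM after sham and 1044, 1214 and 1202 CPM after TAC, with overlap (0.05 ± 0.10). After TAC all 3 T497A libraries lay below the WT libraries, and the difference did not pass (-0.28 ± 0.10, edgeR adjusted p = 0.0964), nor did the interaction (-0.33 ± 0.14). Both were called without a filter on low counts (adjusted p = 0.00364 and 0.0378 by edgeR).

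Among the catalytic subunits of protein phosphatase 1, Ppp1cb (beta isoform, chromosome 5, 32458843 to 32517433) had 522, 504 and 559 CPM in WT sham and 445, 435 and 456 CPM in WT TAC. It was 1.19-fold lower after TAC with no overlap (-0.25 ± 0.07, edgeR adjusted p = 0.0243). Leaving out 1 library ended that call in 4 of 6 fits (WT sham replicate 1 or 3, WT TAC replicate 1 or 2), with an adjusted p up to 0.107 by edgeR. In T497A, Ppp1cb had 576, 488 and 498 CPM after sham and 522, 474 and 507 CPM after TAC, with overlap (-0.06 ± 0.07). The T497A TAC libraries all lay above the WT TAC libraries, by 0.17 ± 0.07 (edgeR adjusted p = 0.171).

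Ppp1ca, the alpha isoform, spanned 113 to 127 CPM over all 12 libraries, and none of its differences passed. Ppp1cc, the gamma isoform, spanned 18.7 to 23.4 CPM. In T497A its TAC libraries at 21.8, 22.7 and 22.8 CPM lay above the sham libraries at 21.8, 18.7 and 19.4 CPM, the closest pair being equal as rounded, by 0.17 ± 0.08 (edgeR adjusted p = 0.462). Of the 3 isoforms added per kilobase, Ppp1cb made up 47.4% ± 0.791 in WT sham and 42.8% ± 1.35 in WT TAC. Its share was 46.8 to 48.3% and 41.3 to 44.0% in these libraries, so the groups did not overlap. In T497A the share was 47.1% ± 2.36 after sham and 46.6% ± 1.48 after TAC. Ppp1ca took 46.5% in WT sham and 50.5% in WT TAC. The pool itself was 102.1 ± 3.69 and 95.4 ± 2.37 CPM per kb in WT. These shares depend on the merged exon lengths and are a description, with no test.

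Ppp1r1a (ENSMUSG00000022490.7, chromosome 15, 103530279 to 103538003, minus strand) encodes inhibitor 1 and was, with Sln, the rarest of the 10 genes. Its counts were 96, 66 and 46 in WT sham and 24, 26 and 38 in WT TAC, or 2.22, 1.47 and 1.34 against 0.526, 0.601 and 0.886 CPM. The groups did not overlap, and Ppp1r1a was 2.50-fold lower (-1.32 ± 0.34, edgeR adjusted p = 0.0122). The call was lost without WT sham replicate 1 (-1.07, adjusted p = 0.0653 by edgeR) and without WT TAC replicate 1 (-1.17, adjusted p = 0.0527 by edgeR).

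In T497A, Ppp1r1a had 36, 66 and 54 counts after sham and 20, 24 and 26 after TAC, or 0.896, 1.83 and 1.19 against 0.446, 0.580 and 0.602 CPM. Again no library overlapped, with nearly the same estimate as in WT (-1.26 ± 0.35), but it did not pass (edgeR adjusted p = 0.190). The interaction was 0.06 ± 0.49 and the genotypes differed after TAC by -0.30 ± 0.36. These errors are wide, and equal responses are not shown by them. Averaged over genotypes Ppp1r1a was 2.44-fold lower after TAC (-1.29 ± 0.25, edgeR adjusted p = 0.00202), a call that held in all 12 fits leaving out 1 library. All 12 counts of Ppp1r1a, and all 12 of Sln, are even numbers, and the cause was not tested.

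**Figure D4:**
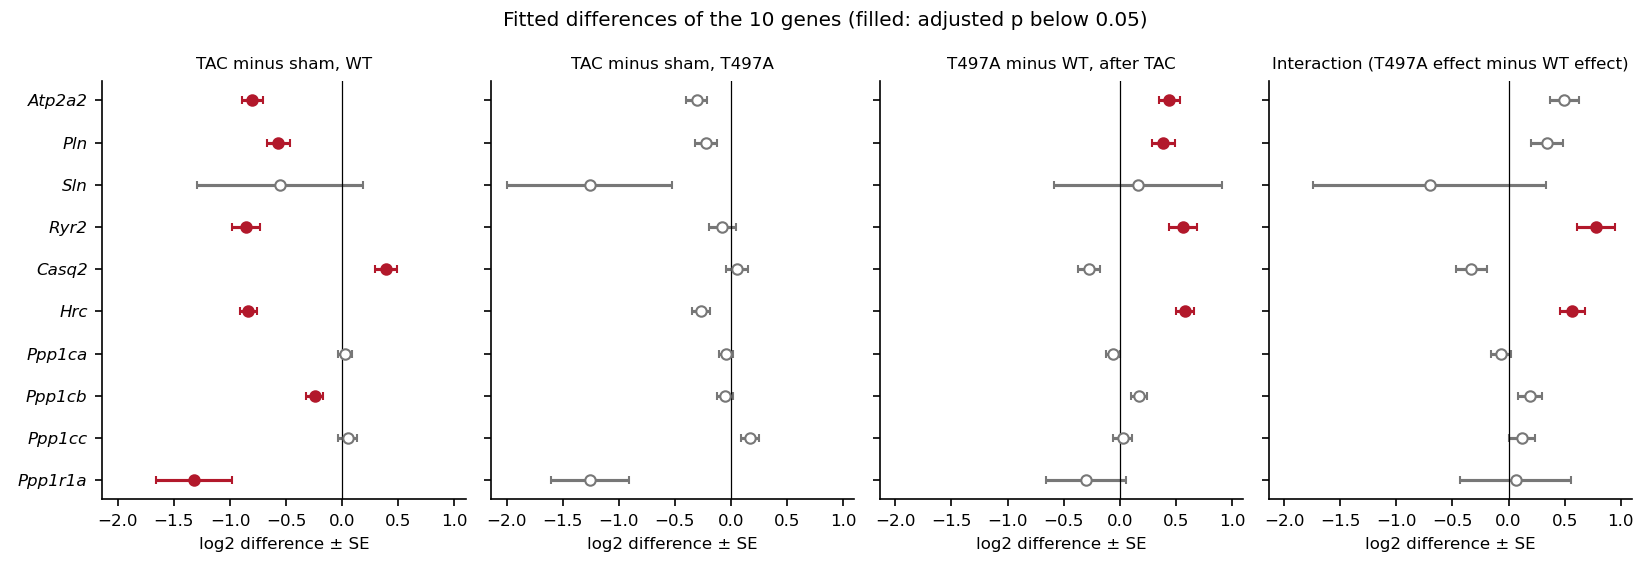
Fitted log2 differences ± SE of the 10 genes for TAC against sham in WT and in T497A, T497A against WT after TAC, and the interaction. Filled points passed an adjusted p of 0.05 in edgeR's quasi-likelihood test: 7, 0, 4 and 2 genes from left to right.

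Counted together, 0 of the 10 genes passed for TAC in T497A with edgeR, beside 0.114% of all genes. At an unadjusted p under 0.05 there were 4 (Atp2a2, Pln, Hrc and Ppp1r1a), beside 1837 of 15764 genes, and DESeq2 and limma-voom also called 0. The share over all genes depends on the tool: edgeR called 18, limma-voom 13 and DESeq2 284 of the 15764 genes. The groups did not overlap in 4 members (Atp2a2, Hrc, Ppp1cc and Ppp1r1a), as in 15.4% of all genes. The median log2 fold change was -0.15. Without a filter on low counts edgeR called Atp2a2 and Hrc there (adjusted p = 0.00117 and 0.0209), along with a rise over all genes from 18 of 15764 to 331 of 29988.

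After sham surgery no member passed between the genotypes. With edgeR 0 of 10 were called, beside 0.0254% of all genes, with 0 members at an unadjusted p under 0.05 and 0 called by DESeq2 or limma-voom. All 10 overlapped between genotypes, where 8.21% of all genes did not. The largest difference among the abundant members was that of Ryr2, at -0.22 ± 0.12.

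After TAC, 4 members were called higher in T497A than in WT (Atp2a2, Pln, Ryr2 and Hrc), beside 8.7% of all genes called and 4.64% called higher. All 4 were among those called lower after TAC in WT. Both comparisons use the same WT TAC libraries, so the second is no independent evidence of the first. The groups did not overlap in 6 members, those 4, Ppp1cb and Casq2, as in 28% of all genes. Each T497A TAC mean of the 4 lay between the WT TAC and the WT sham mean. For Atp2a2 these were 10154, 13778 and 17708 CPM in WT TAC, T497A TAC and WT sham, and for Hrc 728, 1091 and 1299 CPM.

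The interaction was called in 2 members, Ryr2 and Hrc, beside 1.57% of all genes called and 0.894% called higher. It was 0 to 3 members when 1 library was left out. For the averaged TAC effect, 6 members were called, 1 higher (Casq2, 0.22 ± 0.07) and 5 lower, beside 22.4% of all genes called, 11.2% higher and 11.2% lower. Of these, Casq2 lost its call in 7 of 12 fits that left out 1 library, and Atp2a2, Pln, Ryr2, Hrc and Ppp1r1a kept theirs in all 12.

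Markers of heart muscle and of several other cells moved with these groups, and those of endothelium did not. The summed ventricular cardiomyocyte markers were at 63665 to 73903 CPM in WT sham, 46556 to 56339 in WT TAC, 59084 to 67458 in T497A sham and 56834 to 59462 in T497A TAC. In WT, 5 of the 8 markers were called lower after TAC, beside 12.6% of all genes, with a median log2 fold change of -0.35. Fibroblast markers summed to 1796 to 1845 CPM in WT sham and 2759 to 3174 in WT TAC, and to 1780.1 to 2115 and 2228 to 2426 CPM in the T497A groups. Macrophage markers summed to 135 to 158 and 222 to 279 CPM in WT and to 143 to 182 and 171 to 231 CPM in T497A. Smooth muscle and pericyte markers summed to 1538 to 1722 CPM in WT sham and 1169.6 to 1304 in WT TAC, without overlap, and to 1657 to 1672 and 1506 to 1661 CPM in T497A. Of these 8, only Abcc9 was called after TAC in WT (-1.04 ± 0.10), beside 12.6% of all genes called lower. The median log2 fold change of the 8 was -0.14. Averaged over genotypes, Abcc9 was called lower (-0.57 ± 0.07) and Pdgfrb higher (0.34 ± 0.11), beside 11.2% of all genes in each direction. The sum without overlap therefore does not describe these 8 markers as a set. Erythrocyte markers summed to 119.5 to 178 and 212 to 301 CPM in WT, and to 171 to 194 and 134 to 232 CPM in T497A. In WT, 3 of these 5 were called higher after TAC, beside 12.3% of all genes. Endothelial markers summed to 1043 to 1180 CPM in WT sham, 1058 to 1221 in WT TAC, 991 to 1364 in T497A sham and 1025.5 to 1304 in T497A TAC. Of these 8, 0 were called in any comparison by edgeR, where 25% of all genes were called for TAC in WT. The mitochondrial genome took 25.1 to 29.0% of counts in WT sham, 19.6 to 20.9% in WT TAC, 28.3 to 30.9% in T497A sham and 24.6 to 26.1% in T497A TAC. No marker of these lists was at 0 in all libraries. With the mitochondrial genes left out of the fit, the same 7, 0, 0, 4 and 2 members were called in these comparisons. The part of cell composition in the differences was not tested.

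Other genes of the same machinery were read from lists, among them the ryanodine receptor partners and reticulum proteins. After TAC in WT, 5 of 25 rose and 4 fell (median 0.08), beside 12.3% of all genes called higher and 12.6% called lower. The risers included Selenon, selenoprotein N of the reticulum (0.41 ± 0.08), Sri, the calcium-binding protein sorcin (0.35 ± 0.07), and Fkbp1a, an immunophilin that binds ryanodine receptors (0.33 ± 0.07). The genes that fell included Jph1 (-0.67 ± 0.07), a gene of the junctophilins, which hold reticulum and surface membrane together. That value is for Jph1 alone and does not describe junctophilin transcripts as a whole. The ankyrin gene Ank2 (-0.59 ± 0.07) and Trdn, the triadin that links the channel to calsequestrin (-0.42 ± 0.08), also fell. S100a1 (0.30 ± 0.07), Fkbp1b (at 0.126 and 0.503 CPM) and the reticulum cation channel gene Tmem38a (-0.37 ± 0.08) make up the rest and were named after their values were seen. After TAC, Ank2 (0.38 ± 0.07), Trdn (0.30 ± 0.08) and Jph1 (0.25 ± 0.07) were higher in T497A than in WT, and Selenon (-0.56 ± 0.08) and Fkbp1a (-0.30 ± 0.07) lower. Of the 25, 3 were called higher and 2 lower there, beside 8.7% of all genes called. Interactions were called for Ank2 (0.52 ± 0.11), Jph1 (0.42 ± 0.10) and Selenon (-0.56 ± 0.12), beside 1.57% of all genes.

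Of 8 genes of calcium flux across the surface membrane, 3 subunits of the L-type calcium channel fell after TAC in WT: Cacna2d1 (-0.45 ± 0.09), the pore gene Cacna1c (-0.43 ± 0.11) and Cacnb2 (-0.48 ± 0.14). None rose (median -0.05), where 12.3% of all genes were called higher and 12.6% lower. Between genotypes 0 of the 8 were called, beside 8.7% of all genes after TAC and 0.0254% after sham. Of the 4 pump paralogues and micropeptides Atp2a1, Atp2a3, Strit1 and Mrln, 0 were called in any comparison by edgeR. The shares over all genes ran from 0.0254% for T497A against WT after sham to 25% for TAC in WT.

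Of 35 regulatory subunits of phosphatase 1, 6 rose and 3 fell after TAC in WT (median 0.04). Together they are a share near the 25% of all genes called there, and the count is no result about these subunits as a group. Among those that rose were the spinophilin gene Ppp1r9b (0.65 ± 0.10), the glycogen-targeting subunit gene Ppp1r3c (0.85 ± 0.13) and Ppp1r18 (0.64 ± 0.13). Phactr2 (-0.37 ± 0.07) and the neurabin gene Ppp1r9a (-0.56 ± 0.12) fell, as did Ppp1r26 (-0.78 ± 0.18), named after its values were seen. In T497A after TAC, Ppp1r3c (-0.51 ± 0.13) and Ppp1r37 (-0.32 ± 0.08) were lower than in WT, and Ppp1r26 was higher (0.71 ± 0.18). These are 1 higher and 2 lower of 35, a share near the 8.7% of all genes called there. This count too is no result about the group.

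Of 21 kinases, anchors, phosphodiesterases and other phosphatases, 2 rose and 6 fell after TAC in WT (median -0.11), beside 12.3% of all genes higher and 12.6% lower. Prkar1a, a regulatory subunit of protein kinase A (0.83 ± 0.11), and the small heat shock protein gene Hspb6 (0.57 ± 0.12) rose. The kinase gene Camk2a (-0.95 ± 0.10) and the phosphodiesterase genes Pde3a (-0.57 ± 0.07) and Pde4d (-0.79 ± 0.13), which limit cyclic AMP, fell. The related genes Camk2b, Camk2d and Camk2g of the list, named after their values were seen, were not called after TAC in WT. Camk2d (-0.16 ± 0.08) had 230 and 205 CPM in WT sham and WT TAC, against 72.8 and 37.6 CPM for Camk2a. After TAC, Pde3a (0.42 ± 0.07), Camk2a (0.45 ± 0.10), the kinase A anchor gene Akap7 (0.46 ± 0.09) and Pde4d (0.54 ± 0.13, named after its values were seen) were higher in T497A than in WT, and Prkar1a was lower (-0.58 ± 0.11). Of the 21, 4 were called higher and 1 lower there, beside 8.7% of all genes called. Prkca itself averaged 47.8, 57.3, 44.3 and 53.6 CPM in WT sham, WT TAC, T497A sham and T497A TAC, with no call within a genotype or between genotypes. Its averaged TAC effect was called higher (0.27 ± 0.09, edgeR adjusted p = 0.0456). In none of these lists was a gene called for TAC in T497A or between genotypes after sham by edgeR. The shares over all genes were 0.114% and 0.0254%.

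**Figure D5:**
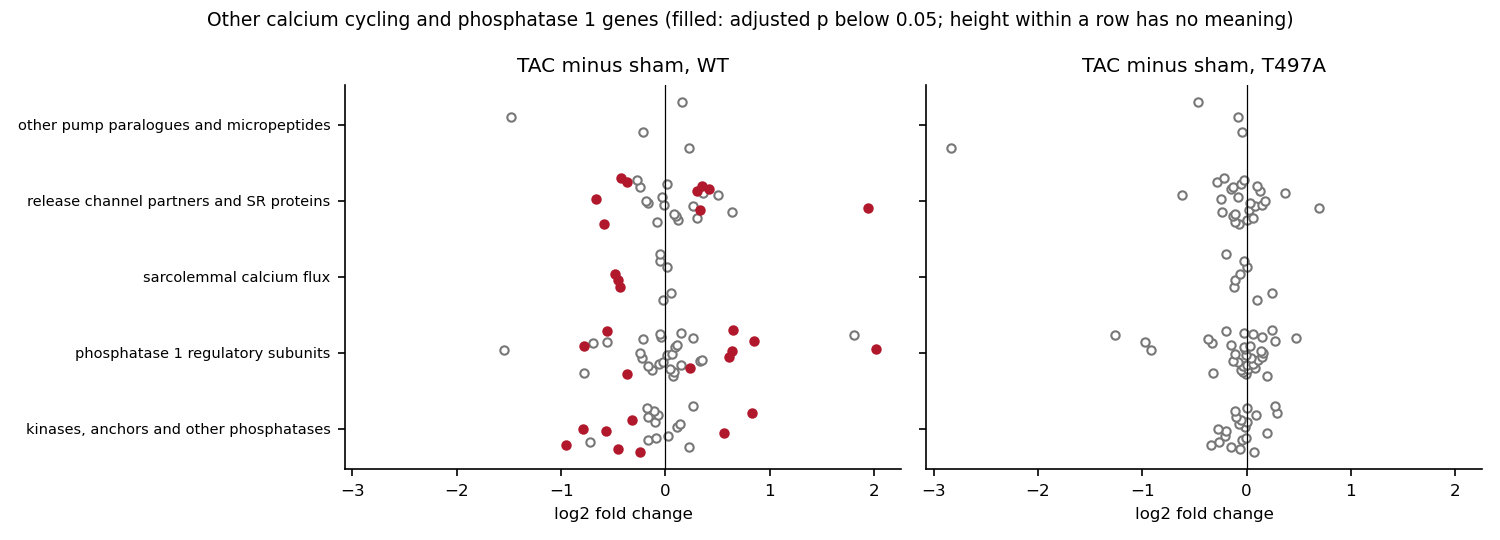
Log2 fold change after TAC in WT (left) and in T497A (right) for each gene of the 5 lists, 1 row per list. Filled points passed an adjusted p of 0.05 in edgeR's quasi-likelihood test; they occur in 4 lists on the left, in both directions in 3 of them, and in none on the right.

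The genes whose profile over the 12 libraries was most like that of 3 members were found by the root mean square difference of log2 CPM, each gene centred on its own mean, among 9367 genes. Nearest to Hrc were Tbc1d4 (0.062), a regulator of glucose transporter traffic, Etfa (0.064), an electron transfer flavoprotein subunit, and Acadm (0.065), the medium-chain acyl-CoA dehydrogenase. Nearest to Atp2a2 were Acadm (0.062), the succinate-CoA ligase gene Suclg2 (0.062) and the insulin-responsive glucose transporter gene Slc2a4 (0.065). Ryr2 had a less close neighbourhood, with Pdpr (0.078), a regulator of pyruvate dehydrogenase phosphatase, the adenylyl cyclase gene Adcy9 (0.106) and Cobll1 (0.109). The median over all genes compared was 0.374 for Hrc, 0.353 for Atp2a2 and 0.365 for Ryr2. The libraries share the 4 groups, so these distances describe likeness and carry no test.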

How the data were processed

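Left ventricle RNA of 12 libraries was described by 1 deposited table of whole-number counts per gene, not normalized by the authors as far as its values show. Per the submitters' processing notes the build was mm10, and the tools included STAR 2.7.3a, Trim Galore 0.6.4, Subread 1.6.3, featureCounts and limma 3.50.3. Not given in the sources used here are their order and settings, the annotation release, the use of strand and the treatment of reads with several matches. Per the labels' protocols, libraries were made with an mRNA kit and sequenced single-end for 75 cycles.

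Groups were taken from the labels, which give 1 batch date. Genes kept by filterByExpr (minimum count 10; 15764 of 55401) were tested in edgeR 4.0.16 (R 4.3.3) with TMM factors, glmQLFit with robust estimation and glmQLFTest, in 1 model of 4 group means, with p-values adjusted by Benjamini-Hochberg over all genes tested and called under 0.05; this is the edgeR adjusted p of the text. The standard error (SE) is the size of the log2 fold change over the square root of F. CPM values use TMM library sizes, and levels per kilobase use the merged exons of a GENCODE annotation of GRCm38. The Pln to Atp2a2 ratio was tested by exact permutation. Surgery was permuted within each genotype for the averaged effect, and genotype within each surgery for the interaction. The null of that interaction test is no genotype difference after either operation, which is narrower than no interaction, so its p is not specific to an interaction. The biological coefficient of variation was 17.2%, and replicates of a group differed by a chi-square per degree of freedom of 23.1 to 63.3, so none was a copy.

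The 10 genes, the gene lists and the tests were chosen with earlier results of these data known. From each other list, up to 3 called genes per direction with the smallest p and a mean CPM of at least 5 were named, and for the 3 members with the smallest p after TAC in WT the 3 most like genes. Alternatives were DESeq2 1.42.0, RLE factors, no mitochondrial genes, no low-count filter, limma-voom (limma 3.58.1), only the libraries compared, each library left out, and, for the ratio, an added count of 0.5 and group medians. The edgeR fit of TAC against sham in WT was tested on simulated data, and the other comparisons and tools were not. Low counts are even more often than odd. All 12 counts were even in 425 of 3835 genes with a mean of 10 to 100 counts (11.1%). The same held in 76 of 6118 genes with a mean of 100 to 1000 counts (1.24%). If even and odd were equally likely, the share would be 0.0244%. The cause was not tested, and counts divided by 2 were fitted as an alternative added after seeing the data.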

Additional observations from a re-analysis of the deposited data

Results flagged for a closer look

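The TAC effect on Ryr2, the release channel gene, differed between the genotypes by an interaction term of 0.78 ± 0.17 on the log2 scale (edgeR adjusted p = 0.0432). It was -0.86 ± 0.12 in WT, where all 3 TAC libraries lay below all 3 sham libraries, and -0.08 ± 0.12 in T497A, where they overlapped.

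For Hrc, the luminal calcium-binding protein gene, the interaction term was 0.57 ± 0.11 (edgeR adjusted p = 0.0261), from -0.84 ± 0.08 in WT and -0.27 ± 0.08 in T497A. Its TAC libraries lay below the sham libraries in both genotypes. Groups of 3 libraries were not searched for outliers.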

How the results depend on the processing

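No paired analysis was possible because all titles carry the same replicate number. With edgeR and no low-count filter, 2 members (Atp2a2 and Hrc) were called for TAC in T497A in place of 0, and 4 (Casq2, Atp2a2, Hrc and Pln) for the interaction in place of 2. Over all genes, calls for TAC in T497A were 18 in edgeR, 331 without the filter and 284 in DESeq2, and for the interaction 248, 898 and 848. Leaving out 1 library gave 2 to 4 members for T497A against WT after TAC, 0 to 3 for the interaction, 5 to 7 for TAC in WT and 5 to 7 for the averaged effect. The averaged difference in the Pln to Atp2a2 ratio was 0.15 with group medians (exact permutation p = 0.1), and 0.12 to 0.21 with 1 library left out. The exact permutation p rose above 0.05 without any 1 of WT TAC replicates 1, 2 and 3, T497A sham replicates 1 and 3 and T497A TAC replicate 3. The interaction of the ratio was -0.26 to -0.0925, with an exact permutation p of 0.035 without WT sham replicate 3.

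Sign changes occurred in values that no setting called. For Sln after TAC, T497A against WT was -0.35 with limma-voom and -0.27 to 0.68 with 1 library left out. With 1 library left out, TAC in WT was -0.0148 to 0.0608 for Ppp1ca, and TAC in T497A -0.17 to 0.0933 for Ryr2 and -0.10 to 0.0230 for Ppp1cb. T497A against WT after sham was -0.12 to 0.0180 for Atp2a2, -0.0192 to 0.13 for Pln, -0.0044 to 1.18 for Sln, -0.0311 to 0.11 for Casq2, -0.0308 to 0.0304 for Ppp1ca and -0.10 to 0.0218 for Ppp1cb. T497A against WT after TAC was -0.0182 to 0.0707 for Ppp1cc. The interaction was -1.14 to 0.16 for Sln and -0.19 to 0.38 for Ppp1r1a, and the averaged TAC effect -0.0315 to 0.0064 for Ppp1ca. Of the other single-gene values, 413 kept side and direction with 1 library left out, 38 lost the call and 3 gained one; under other settings 386 kept both, 2 lost it and 11 gained one. Dividing counts by 2 changed 1 call, that of Ppp1cb for the averaged effect (adjusted p = 0.0499 by edgeR). A fit of only the libraries compared could not be made for the interaction or the average.

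With 3 libraries per group, differences near the SE of each gene could not be resolved, and Sln and Ppp1r1a, at 10 to 320 and 20 to 96 counts, carry the widest errors.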
